A study of Homo sapiens with 6 samples.

Results

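The mitochondrial ribosomal protein genes were described in a human lung squamous carcinoma line, SK-MES-1, cultured with or without exosomes of fibrotic lung fibroblasts. They were taken by symbol, as every row of the gene table that starts with MRPL or MRPS followed by a digit, which gave 76 of 15761 genes. Of these, 75 encode proteins placed in the mitochondrial ribosome, 51 in the large and 24 in the small subunit, where MRPS30 and MRPS18A count with the large subunit in spite of their names. The remaining gene, MRPS36, encodes a component of the 2-oxoglutarate dehydrogenase complex and is given apart. MRPS12 and MRPS18B were not analysed here.

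Mitochondria keep a small genome that encodes core subunits of the respiratory chain, and a ribosome of their own translates its messages. The RNAs of that ribosome come from mitochondrial DNA, whereas every one of its proteins is encoded in the nucleus, made in the cytosol and imported. Some of these proteins have a counterpart in the bacterial ribosome, and others are specific to mitochondria and coat a ribosome that has lost much of its RNA. Their genes lie scattered over the chromosomes, and binding sites for the ETS factor GABP, for NRF1 and for YY1 are described in promoters of nuclear genes of mitochondrial function.

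SK-MES-1 is an established line, labelled WT. The cells had been seeded in 6-well plates and were then kept for 72 h in complete medium alone (control, 3 libraries) or in medium with exosomes, vesicles released by lung fibroblasts of idiopathic pulmonary fibrosis, at 20 µg/ml (exosome, 3 libraries). Whether the 3 libraries of a group came from cultures grown apart is not told by the labels, and p-values therefore rest on differences among these libraries that may be technical. No group received vesicles of another source, so exosomes as such and this kind of exosome cannot be told apart.

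Library totals were 11346639 to 13334508 counts, with 14294 to 14540 genes detected. The keratins KRT8 (1892 to 2396 CPM, read counts scaled to the library total) and KRT18 were abundant in every library, while the basal squamous keratins KRT5, KRT14 and KRT6A stayed at or under 0.45 CPM. KRT8 and KRT18 were lower with exosomes in both fits described below (log2 fold change -0.35 and -0.645 for KRT8, -0.39 and -0.71 for KRT18). KRT17, at 0.997 to 4.318 CPM, was lower too (-1.71 and -2.10), and TP63 and SOX2 were not called. Of 10 fibroblast markers, 7 were in the table and summed to 104 to 114 CPM in control and 48.9 to 54.2 CPM in exosome libraries. Most of that was COL1A1 and COL1A2, which were lower with exosomes in both fits (-1.06 and -1.29 for COL1A1, -1.67 and -1.38 for COL1A2). PDGFRB had 7.47 to 7.76 CPM in control and 6.38 to 7.27 CPM with exosomes. It was called lower only in the second fit (-0.27 and -0.43). COL3A1, PDGFRA, FAP and THY1 had 0 to 5 counts per library. The part of these markers in the results below was not tested.

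Promoter sequences of 67 of the 75 ribosomal genes were found in a RefSeq table (GRCh38.p14; 250 bases before to 50 after the annotated start site). They were searched on both strands for 4 motifs, which are shown because the members are parts of the same complex and their genes are spread over many chromosomes. In the ETS, YY1 and NRF1 matches of the members, no match overlapped a match of another motif. The ETS core CCGGAAG, as bound by GABP, was present in 28 members (41.8%), against 10.7% of all 27305 promoters in the table and 19.1% of the 9828 promoters of genes tested here. The YY1 motif, spelled in capitals in the lines that follow, was present in 9 members (13.4%), against 0.9% of all promoters and 2.1% of those tested. The palindromic NRF1 motif, GCGC followed by any 2 bases and GCGC again, was found in 9 members (13.4%), between the 8.8% of all and the 15.8% of tested promoters. The E-box CACGTG, as bound by MYC, was found in 6 members (9.0%), against 7.4% and 9.9%. A match describes letters in a window and not a bound site.

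In 8 of the 9 members with the YY1 motif it lay on the strand of the gene and began 7 to 36 bases after the start site. In all 8 the letters ATG within it were the annotated start codon, so the motif overlapped the first codons of the protein. These 8 stretches are shown aligned on the motif, which is in capitals, 5′ to 3′ on the strand of the gene.
MRPS10, chr6:42217833-42217861, minus strand: gggaccggcAAGATGGCGGCgcggacagc
MRPS18A, chr6:43687763-43687791, minus strand: aggtttttgAAGATGGCGGCcctcaaggc
MRPS24, chr7:43869479-43869507, minus strand: gcttggcccAAGATGGCGGCctccgtgtg
MRPS30, chr5:44808951-44808979, plus strand: tcgcgggcaAAGATGGCGGCggccaggtg
MRPL22, chr5:154941099-154941122, plus strand: ggagggcgaAAGATGGCGGCggca
MRPL38, chr17:75904859-75904887, minus strand: gccggagggAAGATGGCGGCgccctggtg
MRPL46, chr15:88467361-88467389, minus strand: ggagaacgaAAGATGGCGGCgcccgtaag
MRPL50, chr9:101398576-101398604, minus strand: atctcatcgAAGATGGCGGCgcgatctgt
MRPL36 had the motif on the other strand, 38 bases before the start site.

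The ETS core stood in either orientation and mostly close to the start site. It is shown in capitals for MRPS34, which had 3 copies, for MRPS21 and MRPL27, which had 2 each, and for MRPS26 and MRPL28. The transcripts of these genes were among those that rose most clearly below, and MRPS10, shown last, fell. The examples were thus picked by outcome. MRPS22 also had 3 copies and was not called (log2 fold change 0.013), and MRPL55, MRPL4 and MRPS25, which rose, had no match. Medians of all members with and without the core are given below.
MRPS34 copy 1, chr16:1773189-1773215, minus strand: ctcttcctcgCTTCCGGccgcgaccga
MRPS34 copy 2, chr16:1773147-1773173, minus strand: acaccggcctCTTCCGGtgacttccgg
MRPS34 copy 3, chr16:1773137-1773163, minus strand: cttccggtgaCTTCCGGccggaccgct
MRPS21 copy 1, chr1:150293840-150293866, plus strand: gtaatttccgCTTCCGGtagtgagaac
MRPS21 copy 2, chr1:150293858-150293884, plus strand: agtgagaaccCTTCCGGtgggctaggt
MRPL27 copy 1, chr17:50373220-50373246, minus strand: cacgcagggcCCGGAAGtagatctcct
MRPL27 copy 2, chr17:50373176-50373202, minus strand: cttttcgagaCCGGAAGtgagtgatcg
MRPS26, chr20:3046005-3046031, plus strand: ccccgcgccgCTTCCGGggcacggtgg
MRPL28, chr16:370515-370541, minus strand: ggcagatcggCTTCCGGttccggtggg
MRPS10, chr6:42217867-42217893, minus strand: cgctgtaaccCCGGAAGcaatcctgag
In MRPL17, whose transcript rose as well, the NRF1 motif, again in capitals, began 81 bases before the start site.
MRPL17, chr11:6683402-6683431, minus strand: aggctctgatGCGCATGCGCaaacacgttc

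With exosomes, 38 genes of the mitochondrial ribosome were called higher and 5 lower by the test described below, and the summed level was higher. Of all genes tested, 25.6% were higher and 26.1% lower. With a trend on GC content and transcript length removed (described below), 24 of the 38 stayed higher. The calls of 13 ended and 1 turned lower, and 12.7% of all genes were higher in both fits. MRPS36, the gene outside the ribosome, fell as well and is included where 74 or 76 members are counted. The sum of the 75 genes was 2935, 2959 and 2760 CPM in control libraries 1 to 3 and 3842, 3851 and 3454 CPM in exosome libraries 1 to 3. Every exosome library lay above every control library, a ratio of means of 1.29. In bulk RNA, a shift in the kinds of cells present and a shift in RNA per cell cannot be told apart. The ratio was 1.31 for the large subunit and 1.24 for the small subunit; whether these differ was not tested.

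Of the 76 genes, 74 had enough reads for a test, and MRPL46 and MRPS24 did not. Counts were compared with edgeR's quasi-likelihood test, and a gene was called at an adjusted p under 0.05 over all 12449 genes tested. Of the 74, 38 were higher with exosomes (25.6% of all genes tested were called higher) and 6 were lower (26.1% of all genes). The share called higher was 51.4% of the members. Their median log2 fold change was 0.30, against -0.004 over all genes. In CPM, all 3 exosome libraries lay above all 3 control libraries for 43 members (35.0% of all genes) and below them for 6 (24.5% of all genes). At least 2-fold and called, 5 members were higher (2.92% of all genes), namely MRPL24, MRPL55, MRPS26, MRPS34 and MRPL28, and MRPL45 was lower (1.29% of all genes).

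By subunit, 28 of 50 large subunit genes were higher and 3 lower (median log2 fold change 0.37), and 10 of 23 small subunit genes were higher and 2 lower (median 0.20). Genes of proteins with a bacterial counterpart were higher in 24 and lower in 2 of 44, and genes of mitochondria-specific proteins were higher in 14 and lower in 3 of 29. With a trend on GC content and transcript length removed (described below; 18.2% of all genes then higher and 17.3% lower), the counts were 16 and 2 of 44 and 13 and 6 of 29; whether the classes differ was not tested. The sixth lower member was MRPS36, from 9.90, 10.8 and 8.90 CPM in control to 8.20, 7.90 and 6.00 CPM with exosomes. Its groups did not overlap, with the highest exosome library just under the lowest control library. The log2 fold change was -0.51 (edgeR adjusted p = 0.0157), and the call ended when a trend on GC content and transcript length was removed, as described below (-0.38, edgeR adjusted p = 0.0618).

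**Figure D1:**
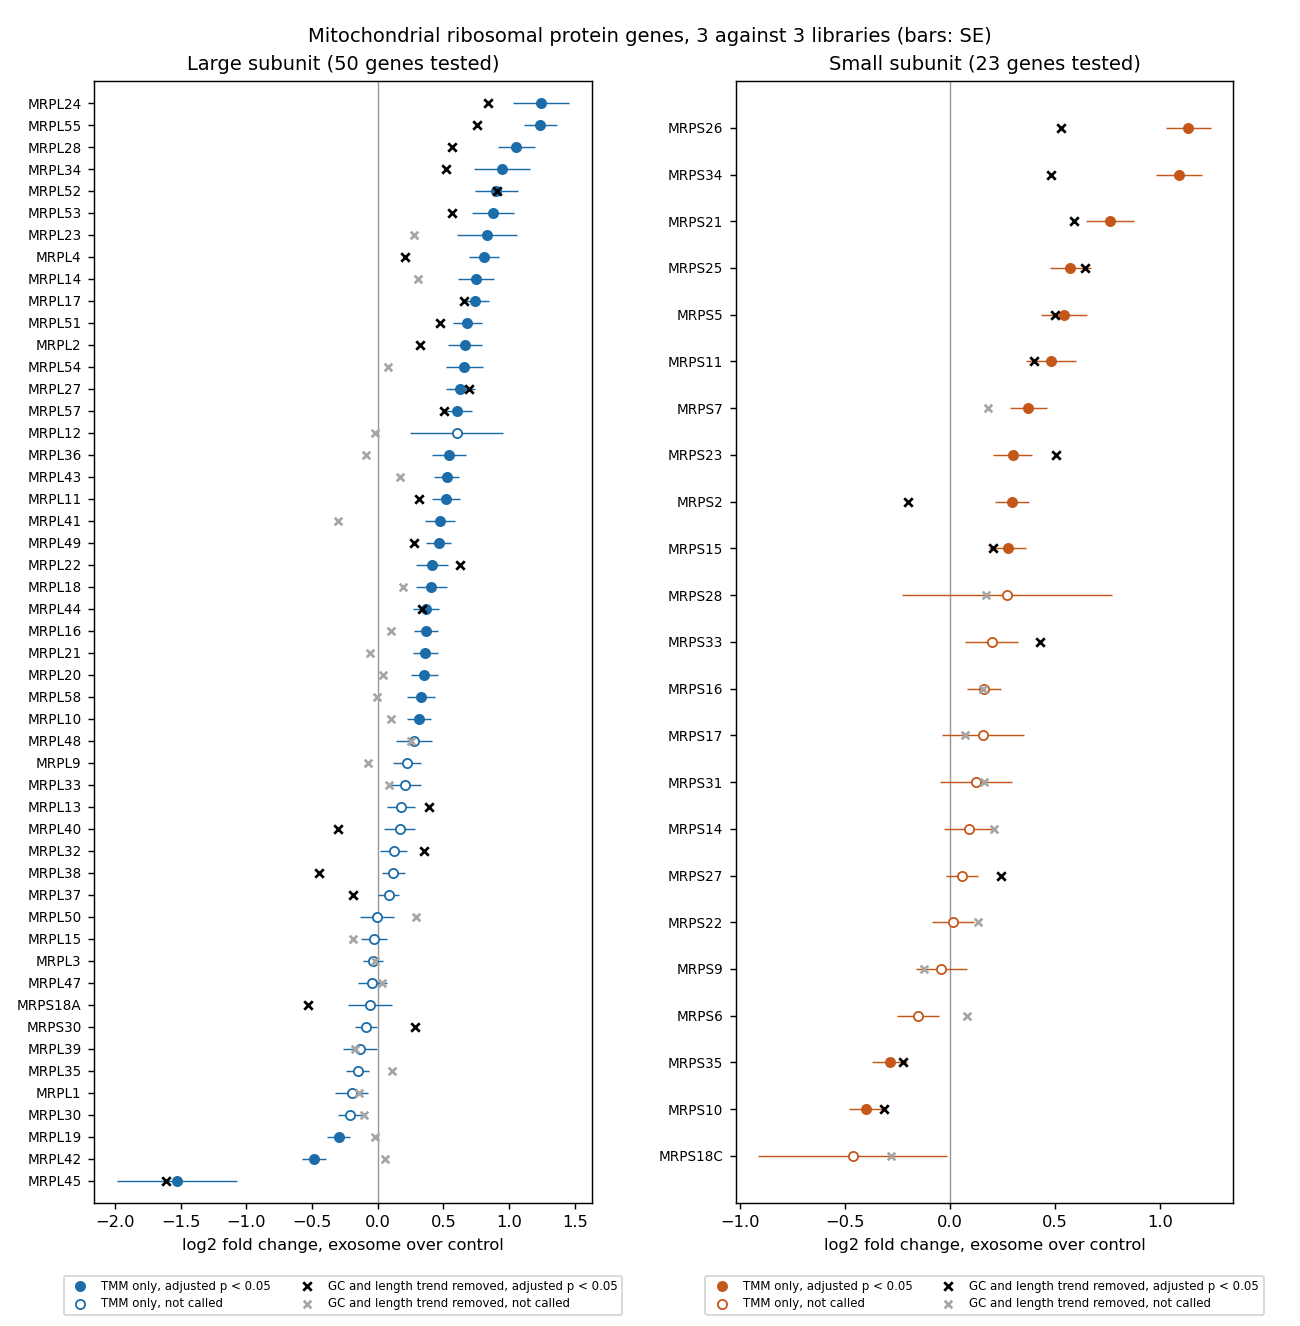
Log2 fold change of exosome over control for the 50 large subunit genes (left) and 23 small subunit genes (right) tested, in order of size. Circles with bars are the fit with TMM scaling and its standard error, filled where adjusted p was under 0.05, and crosses are the fit with the trend on GC content and transcript length removed, black where adjusted p was under 0.05. Most circles lie right of 0, and many crosses lie nearer to 0 than their circles.

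The fold changes of the members followed the base composition of their transcripts, as they did across all genes. Across the 73 ribosomal genes tested, which are not independent replicates, the Spearman correlation of log2 fold change with GC content was 0.67, and across all genes it was 0.62. Among the 25 members with 33.5 to 44.2% GC, 2 were higher and 4 lower. Among the 23 with 44.6 to 51.8% GC, 17 were higher and 1 was lower, and among the 25 with 52.2 to 71.9% GC, 19 were higher and 0 lower. Of all genes tested in these GC ranges, 4.17%, 17.7% and 50.2% were higher, against 8.0%, 73.9% and 76.0% of the members. Lower were 52.1%, 21.5% and 5.45% of all genes, against 16.0%, 4.35% and 0.0% of the members. The differences were not tested.

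The same trend separated the libraries. Relative to each gene's mean, log2 levels changed over 10 points of GC content by -0.117, -0.138 and -0.210 in control libraries 1 to 3 and by 0.236, 0.165 and 0.064 in exosome libraries 1 to 3. Exosome library 3 had the weakest slope of its group and was the lowest exosome library for 37 of the 38 higher members. Control library 3 had the steepest slope and was the lowest control library for 24 of the 38. These positions were not counted over all genes, so they cannot be read as particular to the members. With control library 3 left out, 39 members were higher (24.4% of all genes) and 6 lower (23.3% of all genes). With exosome library 3 left out, 38 were higher (25.7% of all genes) and 6 lower (26.8% of all genes).

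A second fit removed the trend on GC content and transcript length within each library before the test. In this trend-removed fit, 29 of 74 members were higher (18.2% of all genes) and 8 were lower (17.3% of all genes), with a median log2 fold change of 0.17 against -0.003 for all genes. The large subunit then held 19 higher and 5 lower genes (median 0.14) and the small subunit 10 and 3 (median 0.18). Members are encoded by short transcripts, with a median length of 1748 bases against 3723 over all genes tested. When GC content alone was removed and length was kept, 41 members were higher (17.1% of all genes) and 3 lower (19.3% of all genes), with a median of 0.30. Removing GC content alone did not lower the count of higher members, and adding length did.

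Both fits called 24 members higher (12.7% of all genes) and 3 lower (11.7% of all genes). A further 13 members were higher only before the trend was removed and 3 were lower only before it (MRPL19, MRPL42 and MRPS36). The trend-removed fit added 5 higher and 4 lower members, turned 1 from higher to lower, and 21 passed in neither fit. Calls that ended, were added or turned were not counted over all genes, so these counts cannot be read as particular to the members.

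**Figure D2:**
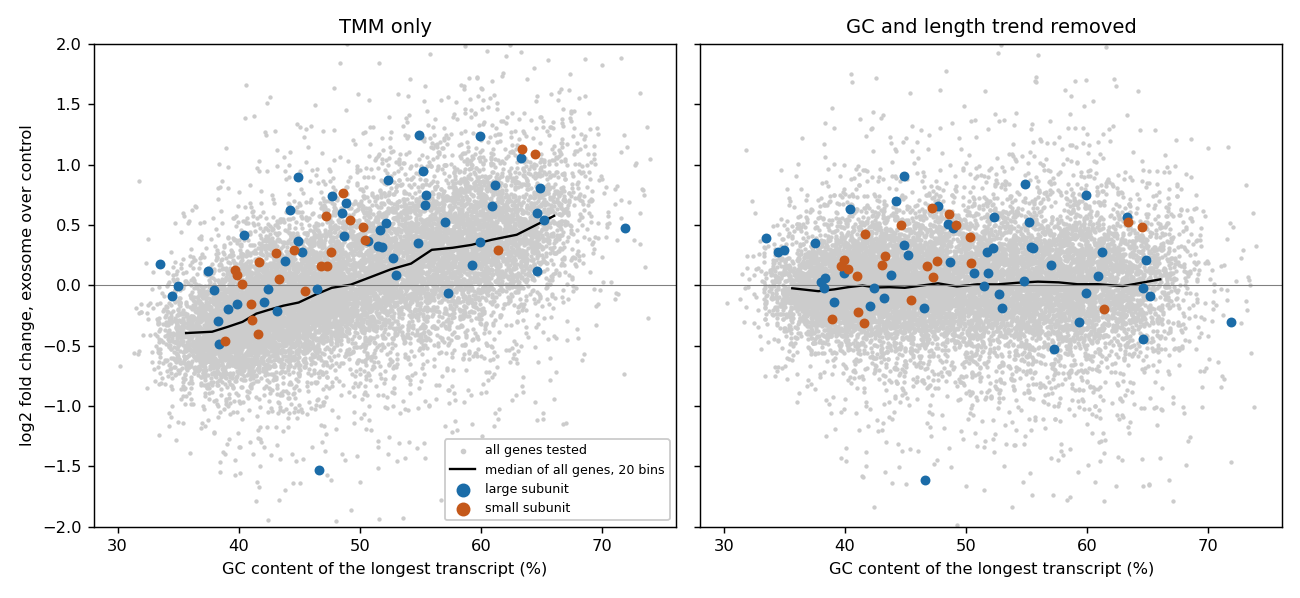
Log2 fold change against the GC content of the longest annotated transcript, with TMM scaling alone (left) and with the trend on GC content and length removed (right). Grey points are all genes tested, of which those beyond 2 in either direction are outside the axis, the black line is their median in 20 bins of equal size, and coloured points are the ribosomal members by subunit. On the left the members climb with GC around and mostly above the line (Spearman 0.67), and on the right they show no slope (0.01).

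In the large subunit, MRPL55 (bL31m, a protein with a bacterial counterpart) changed with the smallest adjusted p. It had 16.4, 13.5 and 12.9 CPM in control and 37.5, 39.1 and 30.5 CPM with exosomes. The groups lay far apart, and the log2 fold change was 1.24 ± 0.13 (SE; edgeR adjusted p = 1.33e-07), or 0.75 ± 0.10 with the trend removed (edgeR adjusted p = 9.51e-06). MRPL28 (bL28m) went from 34.7, 35.3 and 22.9 CPM to 72.4, 72.2 and 59.7 CPM. Library 3 was the lowest of both groups, and the groups did not overlap. The log2 fold change was 1.05 ± 0.14 (edgeR adjusted p = 3.66e-05) and 0.57 with the trend removed.

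MRPL17 (bL17m) had 34.3, 32.2 and 27.8 CPM in control and 55.7, 60.5 and 50.8 CPM with exosomes. The highest control library was well under the lowest exosome library. This transcript has a GC content of 47.7%, close to the 48.4% median of all genes, and its log2 fold change hardly moved between the fits, at 0.74 ± 0.10 and 0.66 ± 0.09. MRPL51 (mL51, specific to mitochondria) rose from 22.4, 24.3 and 22.1 CPM to 40.7, 42.8 and 33.5 CPM. Its log2 fold changes were 0.68 and 0.47, and it kept its call in all leave-one-out fits, with and without the trend.

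MRPL4 (uL4m) and MRPL27 (bL27m) both rose but differed in how far the fold moved between the fits. MRPL4, at 64.9% GC, had 75.7, 78.1 and 74.4 CPM in control and 170.3, 141.4 and 112.2 CPM with exosomes. The exosome libraries were spread widely but all lay above control. Its log2 fold change went from 0.81 to 0.21 with the trend removed (edgeR adjusted p = 0.0409), and that call held in only 2 of 6 leave-one-out fits. MRPL27, at 44.2% GC, had 20.1, 21.0 and 21.1 CPM against 36.0, 36.7 and 29.02 CPM, again without overlap. The log2 fold changes were 0.63 and, with the trend removed, 0.70.

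Among large subunit genes outside the rule for named genes, MRPL24 and MRPL52 had the largest log2 fold changes with the trend removed. They were chosen after their values were seen. In the first fit MRPL34 lay between them (0.95, and 0.52 with the trend removed). MRPL24 (uL24m) had 26.02, 22.6 and 13.5 CPM in control and 55.1, 55.5 and 44.9 CPM with exosomes. Control library 3 was far under the other control libraries. The log2 fold change of 1.24 ± 0.21 was the largest of all members, and 0.84 remained with the trend removed. MRPL52 (mL52) rose from 11.1, 9.78 and 8.98 CPM to 24.5, 20.3 and 14.5 CPM. At 44.9% GC its log2 fold change was 0.90, and 0.91 with the trend removed, the largest of the members in that fit.

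MRPL11 (uL11m), at the base of the stalk where translation factors bind, and MRPL44 (mL44), which has a fold related to ribonuclease III, also rose. MRPL11 had 158.6, 156.3 and 113.8 CPM in control and 222.7, 228.4 and 200.8 CPM with exosomes, and the groups did not overlap. Its log2 fold change was 0.52 ± 0.11 (edgeR adjusted p = 9.64e-04) and 0.31 with the trend removed. MRPL44 went from 39.0, 39.6 and 32.6 CPM to 49.9, 53.3 and 48.8 CPM, with log2 fold changes of 0.37 and 0.34. MRPL12 (bL12m), the stalk protein itself, which is also known to bind the mitochondrial RNA polymerase, had only 13 to 38 reads per library. At 1.49, 1.32 and 1.01 CPM in control and 2.89, 1.99 and 1.28 CPM with exosomes its groups overlapped, and it was not called (log2 fold change 0.60 ± 0.36, edgeR adjusted p = 0.165).

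**Figure D3:**
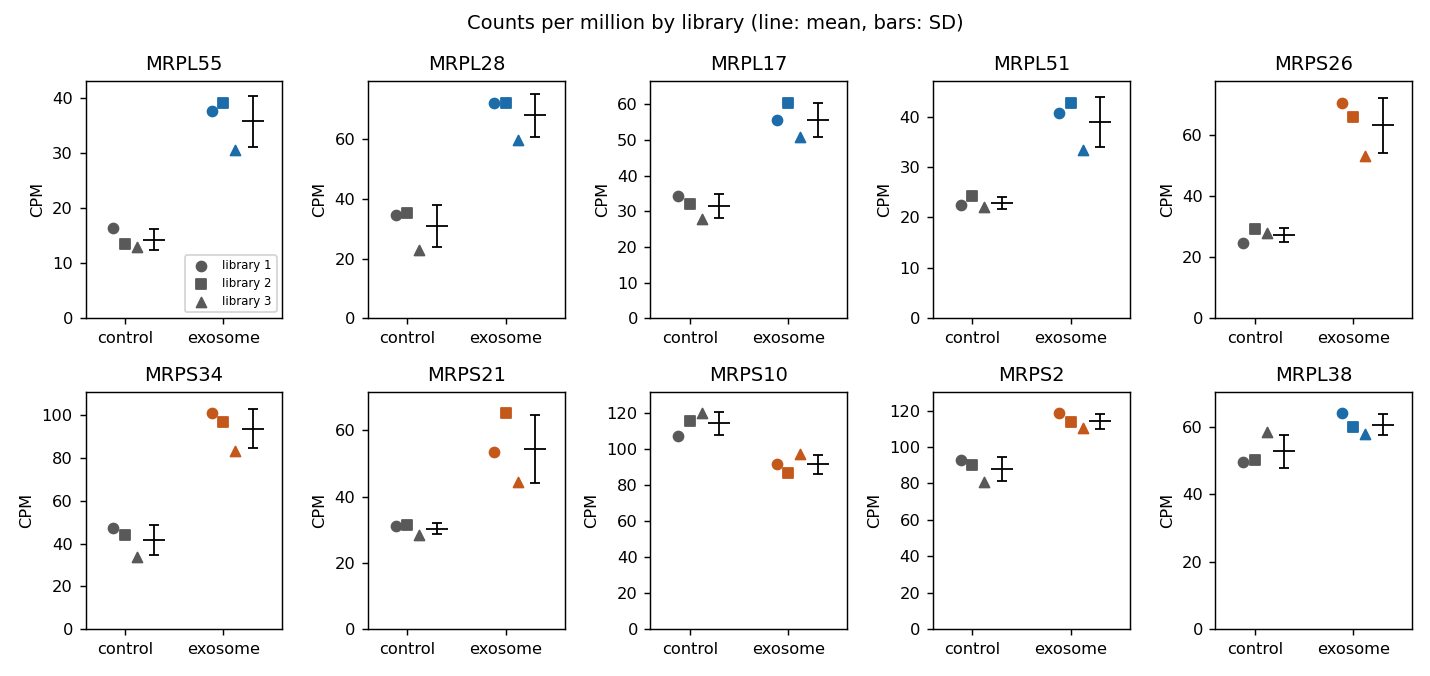
CPM of 10 members in the 3 control libraries (grey) and the 3 exosome libraries (blue, large subunit; orange, small subunit), with the mean and SD beside the points. Symbols mark the library number, which only names a library. In all but MRPL38 the groups do not overlap, and MRPS10 alone lies lower with exosomes.

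In the small subunit, MRPS26 and MRPS34, both specific to mitochondria, rose about 2-fold. MRPS26 had 24.7, 29.1 and 27.9 CPM in control and 70.6, 65.8 and 53.1 CPM with exosomes. The gap between the groups was wide, and the log2 fold change of 1.13 ± 0.11 had the smallest adjusted p of all members (edgeR adjusted p = 4.99e-08). MRPS34 (mS34), needed for a stable small subunit, went from 47.1, 43.8 and 33.8 CPM to 101.0, 96.9 and 83.5 CPM. It rose by a log2 fold change of 1.09 ± 0.11. The transcripts have 63.4 and 64.5% GC, and with the trend removed their log2 fold changes were 0.53 and 0.48, each still called in all leave-one-out fits.

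MRPS21 (bS21m), MRPS25 (mS25) and MRPS5 (uS5m, at the path of the incoming messenger RNA) rose in both fits, and their GC content was close to the median of all genes. MRPS21 had 31.1, 31.4 and 28.4 CPM in control and 53.6, 65.2 and 44.5 CPM with exosomes. Control libraries lay close together while exosome libraries were spread, and the log2 fold changes were 0.76 and 0.59. MRPS25 rose from 38.9, 42.7 and 44.3 CPM to 68.0, 73.9 and 56.6 CPM, with log2 fold changes of 0.57 and 0.64. MRPS5 rose from 33.6, 34.4 and 26.9 CPM to 47.0, 54.0 and 45.4 CPM, with log2 fold changes of 0.54 and 0.50. MRPS7 (uS7m, in the head of the subunit) had 53.0, 48.1 and 48.5 CPM against 69.5, 72.9 and 62.9 CPM. Its groups did not overlap, but the log2 fold change of 0.37 was 0.18 with the trend removed and was then not called (edgeR adjusted p = 0.0562). With the trend computed from the median of the gene's basic transcripts in place of the longest, it was called higher.

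Few members were lower. MRPS10 (uS10m), of the small subunit, had 107.5, 115.6 and 120.0 CPM in control and 91.6, 86.5 and 97.1 CPM with exosomes. Its groups did not overlap, and it was lower in both fits (log2 fold change -0.40 ± 0.08, edgeR adjusted p = 3.27e-04, and -0.31 with the trend removed). MRPS35 (mS35) went from 68.8, 69.9 and 73.4 CPM to 60.6, 60.1 and 63.2 CPM. The log2 fold changes were -0.29 and -0.22, but the call ended with the median of basic transcripts. With the trend removed, the call of MRPS35 held in 4 of 6 leave-one-out fits.

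MRPL45 (mL45), which sits at the exit of the peptide tunnel and holds the ribosome at the inner membrane, had the largest fall, on few reads. There were 14, 12 and 18 reads in control and 5, 7 and 5 with exosomes. The groups did not overlap, and the log2 fold change was -1.53 ± 0.46 (edgeR adjusted p = 0.00811) and -1.61 with the trend removed. Of its 50-base words, 16.9% also occur in another gene, so part of its reads may have been left out or counted elsewhere, and no source used here tells how the authors treated such reads. MRPL42 (mL42) fell from 56.5, 52.1 and 56.3 CPM to 40.4, 43.0 and 41.6 CPM, without overlap. Its log2 fold change was -0.48 (edgeR adjusted p = 1.38e-04) and 0.059 with the trend removed. That trend used a longest transcript of 15582 bases, and with the median of its basic transcripts MRPL42 was called lower. MRPL19 (bL19m) fell from 86.6, 80.6 and 91.8 CPM to 69.9, 73.7 and 79.3 CPM, at a log2 fold change of -0.30 that was -0.024 with the trend removed. It too was called lower with the median of basic transcripts.

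MRPS2 (uS2m) was the member whose call turned. It had 92.8, 90.2 and 80.7 CPM in control and 118.5, 113.8 and 110.3 CPM with exosomes, so that the groups did not overlap in CPM. At 61.4% GC its log2 fold change was 0.30 ± 0.08 (edgeR adjusted p = 0.00455) and, with the trend removed, -0.20 ± 0.07 (edgeR adjusted p = 0.0243). The lower call held in 2 of 6 leave-one-out fits and ended with the median of basic transcripts.

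Calls of MRPL23 (uL23m, at the tunnel exit), MRPL14 (uL14m, at the subunit interface), MRPL54, MRPL36 (bL36m) and MRPL43 also ended when the trend was removed. Their log2 fold changes went from 0.83 to 0.28 (MRPL23), 0.75 to 0.31 (MRPL14), 0.66 to 0.078 (MRPL54), 0.54 to -0.086 (MRPL36) and 0.53 to 0.17 (MRPL43). Their GC contents of 55.5 to 65.2% were all above the median of all genes. MRPL14 was again called higher with the median of basic transcripts.

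The members called only after the trend was removed went both ways. Of those named by the rule, the GC-poor MRPS33 (log2 fold change 0.20 before and 0.43 after), MRPL13 (uL13m; 0.18 and 0.39) and MRPL32 (bL32m, which a mitochondrial protease trims before it is built in; 0.12 and 0.35) were higher. MRPS33 and MRPL32 were not called with the median of basic transcripts. MRPL38 (mL38, with a fold like phosphatidylethanolamine-binding proteins; 0.12 and -0.45) and MRPL40 (0.17 and -0.30), at 64.6 and 59.3% GC, were lower. MRPL38 had 49.6, 50.2 and 58.3 CPM in control and 64.0, 59.8 and 58.0 CPM with exosomes, so its CPM groups overlapped with exosomes on the higher side. Its lower call thus rests on the expectation set by other GC-rich genes. The CPM groups of MRPL40 overlapped as well, with means of 35.25 CPM in control and 41.83 CPM with exosomes. The lower call of MRPL40 held in 3 of 6 leave-one-out fits with the trend removed.

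MRPS18A, MRPS18B and MRPS18C are paralogs of one another, related to the bacterial protein bS18, and each copy has its own place in the ribosome. In the class counts above, MRPS18A was placed with the mitochondria-specific proteins. MRPS18A, in the large subunit, had 7.47, 8.46 and 8.36 CPM in control and 8.81, 8.74 and 7.12 CPM with exosomes, and its groups overlapped. Its log2 fold change was -0.059 and, with the trend removed, -0.53 (edgeR adjusted p = 0.0104). MRPS18C, in the small subunit, had 21, 18 and 6 reads in control and 9, 12 and 16 with exosomes. The groups overlapped and it was not called (log2 fold change -0.46 ± 0.45). Much of both transcripts is shared with a neighbour, 58.7% of the 50-base words of MRPS18A (with RSPH9) and 74.3% of those of MRPS18C (with ABRAXAS1), which leaves their counts uncertain.

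Levels between genes were compared on the authors' FPKM, which scale by length. The transcripts spanned a wide range of levels. The median of the 75 ribosomal genes was 18.9 FPKM in control and 28.5 FPKM with exosomes. Over all 6 libraries, 53 of the 75 lay between 10 and 60 FPKM. The highest were MRPL11 (106 FPKM), MRPL3 (uL3m, 82.6 FPKM) and MRPS34 (64.8 FPKM). MRPL3 had 149.1, 151.7 and 138.2 CPM in control and 148.2, 153.6 and 152.1 CPM with exosomes, so its groups overlapped and it was not called. The lowest were MRPS24 (0.0373 FPKM), MRPL46 (0.320 FPKM) and MRPL45 (0.473 FPKM).

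Several of the lowest members share sequence with other genes. Under a bound of 5 FPKM, chosen like the next after the values were seen, lay 10 members, and 7 of them shared over 15% of their 50-base words with another gene. Of the other 65, 13 did. MRPS24 (uS3m) shared 80.3% of its words, with the annotated readthrough gene URGCP-MRPS24, and had 2 reads in all libraries together. MRPL46 (mL46) shared 69.7%, and MRPL12 66.6%. MRPL38 (67.0%) and MRPL53 (50.2%, with CCDC142) shared as much but were not low, while MRPL23, MRPL42 and MRPL48 were under 5 FPKM and shared at most 3.4%. Whether reads of shared stretches were dropped was not tested.

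**Figure D4:**
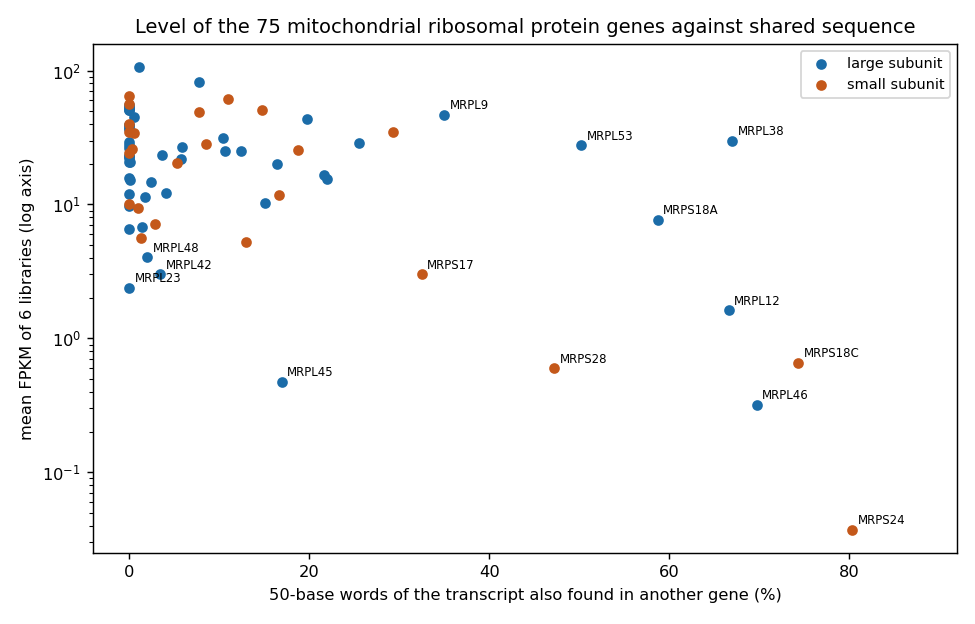
Mean FPKM over 6 libraries (log axis) of the 75 ribosomal genes against the share of 50-base words of their transcripts that also occur in another gene. Members under 5 FPKM or above 30% shared words are named. The 3 lowest members share 16.9 to 80.3% of their words, and most members between 10 and 60 FPKM share little.

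The members were also set side by side by their promoter motifs. The 28 tested members with the ETS core had a median log2 fold change of 0.29 and the 37 without it 0.37, or 0.15 and 0.21 with the trend removed. The 9 with the NRF1 motif had medians of 0.48 and 0.31 in these fits, against 0.30 and 0.17 for the 56 without it. The 7 tested members with the YY1 motif had a median of -0.002 against 0.34 for the 58 without it, and -0.086 against 0.19 with the trend removed. The 6 with the E-box had medians of 0.25 and -0.14, against 0.30 and 0.19 for the 59 without it. These are descriptions of few genes without a test. Of 9 tested regulators of mitochondrial genes, 4 were higher and 1 lower, or 2 and 1 with the trend removed (44.4% and 22.2% higher, beside 25.6% and 18.2% of all genes). MYC (log2 fold change 0.57 and 0.32) and the coactivator HCFC1 (0.43 and 0.25) were higher in both fits, and GABPA, the DNA-binding subunit of GABP, was lower in both (-0.67 and -0.28). NRF1 (0.074) and YY1 (-0.14) did not pass, and PPARGC1A, a coactivator of mitochondrial genes, had 0 to 5 reads per library.

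Several members start back to back with a neighbour on the other strand. How common such neighbours are among all genes was not counted. Starts that overlapped slightly were included, as for MRPL13 with MTBP and MRPL32 with PSMA2. Within 1000 bases, 18 different pairs of starts with an annotated gene were found, and MRPL46 and MRPS11 start 34 bases from each other. MRPL27 and EME1, 6 bases apart, were both higher in both fits (first-fit log2 fold change 0.63 for MRPL27 and 0.74 for EME1). MRPL52 and SLC7A7, 59 bases apart, went in opposite directions in both fits (first-fit values 0.90 for MRPL52 and -1.20 for SLC7A7). MRPS34 rose while EME2, 52 bases away, was not called (first-fit values 1.09 for MRPS34 and 0.50 for EME2). All pairs were found by position, after the values of the members were known, and those described here were picked from them by outcome. Among the others, MRPL36 with NDUFS6 and MRPL54 with APBA3 were both higher in the first fit. MTBP was lower in that fit while its neighbour MRPL13 was not called. Outcomes were not tallied over all pairs.

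The ribosome has further proteins with names outside the rule. Of 5 such genes, 4 were higher in the first fit and 4 in the trend-removed fit, though not the same 4. This 80.0% in each fit stood beside 25.6% and 18.2% of all genes, and rests on few genes. CHCHD1 (mS37) had log2 fold changes of 0.997 and 0.91, AURKAIP1 (mS38) 1.12 and 0.45, and DAP3 (mS29, a GTP-binding protein) 0.23 and 0.20. GADD45GIP1 (mL64) was higher before the trend was removed only (0.34 and -0.13), and PTCD3 (mS39, a pentatricopeptide repeat protein) after it only (-0.043 and 0.23).

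Genes that build and serve the ribosome were described in the same way. Of 26 assembly factors tested, 10 were higher and 3 lower, or 5 and 1 with the trend removed (median log2 fold change 0.25 and 0.049). The shares higher, 38.5% and 19.2%, stood beside 25.6% and 18.2% of all genes, so the trend-removed share was near that of all genes. TRUB2, a pseudouridine synthase, was higher in both fits (0.28 and 0.28), MTG2, a GTPase of large subunit assembly, only before the trend was removed (0.42 and 0.059), and METTL15, which methylates the small subunit RNA, lower in both (-0.63 and -0.33). Of 15 translation factors, 3 were higher and 2 lower, or 3 and 1. Their 20.0% higher in each fit stood beside the same 25.6% and 18.2%. TACO1, an activator of the translation of MT-CO1, was higher (0.50 and 0.25), and LRPPRC, which stabilises mitochondrial messages, was lower (-0.55 and -0.27). SLIRP, the partner of LRPPRC, was higher (0.28 and 0.29). Of 5 genes of mitochondrial transcription, 1 was higher (POLRMT) and 1 lower (TFAM), and 0 passed with the trend removed. The 20.0% higher and 20.0% lower in the first fit stood beside 25.6% and 26.1% of all genes.

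The protein-coding genes of mitochondrial DNA, whose messages this ribosome translates, were called lower where they were called. Of 13, 0 were higher and 7 lower, or 0 and 10 with the trend removed (median log2 fold change -0.43 and -0.58). Thus 53.85% and 76.92% were lower, beside 26.1% and 17.3% of all genes. Their sum was 91840, 85640 and 64460 CPM in control and 60420, 59780 and 70030 CPM with exosomes. Control library 3 lay under exosome library 3, so the summed groups overlapped. MT-ND4L (-1.17 and -1.20) and MT-ND6 (-1.02 and -1.11) fell most, and MT-ATP8, MT-CO3 and MT-ND3 did not pass in either fit. MT-ND4L and MT-ATP8 overlap their neighbours, and without a known strand setting the reads of MT-ND6 and of the transcripts opposite it cannot be told apart.

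Cytosolic ribosomal protein genes, the counterpart outside mitochondria, were described by the same counts. Of 77 tested, 41 were higher and 4 lower (median log2 fold change 0.39), or 35 and 7 with the trend removed (median 0.29). Thus 53.2% and 45.5% were higher, beside 25.6% and 18.2% of all genes. Their summed level rose by a ratio of 1.41, against 1.29 for the mitochondrial ribosome. The difference between the ribosomes was not tested.

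**Figure D5:**
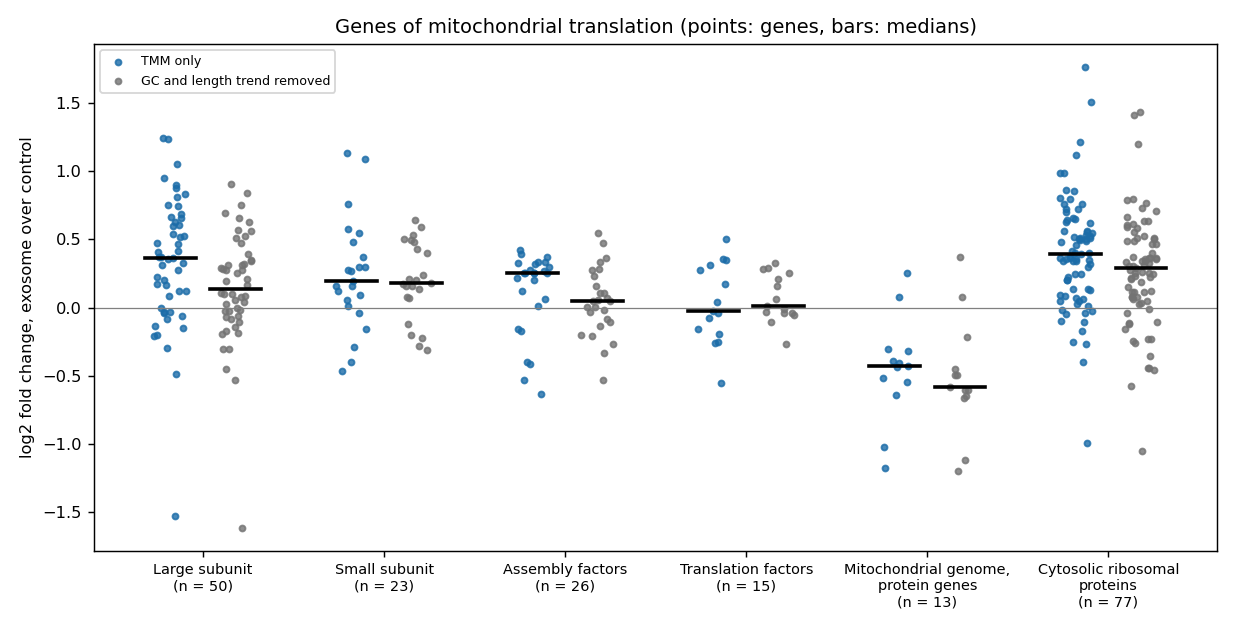
Log2 fold change of exosome over control for the genes of the mitochondrial ribosome, its assembly and translation factors, the protein genes of mitochondrial DNA and the cytosolic ribosome. Points are genes, black bars are medians, blue is the fit with TMM scaling and grey the fit with the trend on GC content and length removed. The medians of both ribosomes lie above 0 in both fits, and that of the mitochondrial DNA genes lies under 0 (-0.43 and -0.58).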

How the data were processed

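The total RNA behind 3 control and 3 exosome libraries was taken up in Trizol and a NEBNext Ultra kit made the libraries, per the labels' protocols. The submitters' processing notes name STAR and the build GRCh38 (hg38). No counting program, annotation or strand setting is named in the sources used here. The deposited table of 15761 gene symbols holds the authors' read counts and, per the file headers, their FPKM. It also holds a signal, the counts divided by the authors' size factor of each library, their log2 fold changes and their p-values, which were not used.

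The test was edgeR 4.0.16 (R 4.3.3) on the counts, with filterByExpr, TMM and a robust quasi-likelihood fit, with Benjamini-Hochberg adjustment over 12449 genes and a threshold of 0.05. CPM divide a count by its library's total and leave TMM factors out, and 1 CPM was 11.3 to 13.3 reads. The trend-removed fit smoothed each library's log2 CPM (TMM, prior count 2), minus the gene's mean, on GC content and log2 length of the longest GENCODE 29 transcript (loess, span 0.3) and entered the result as an offset. Pairs of values in parentheses after a gene are its log2 fold change and the trend-removed one. For the back-to-back neighbours the values are from the first fit and are named by gene. For all 15490 genes compared, both ends in the table lay 1 base under those of GENCODE 29, which places it on GRCh38. The authors' FPKM have an unstated length. Replicate numbers came from the sample titles; the closing section gives the pairing check.

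The members, the gene lists and the tests were chosen with earlier results of these data known. The trend based on the median of basic transcripts, the GC ranges, the shared 50-base words with their bounds and the neighbour pairs were added after values had been seen. Genes were named by rule: in each subunit the 6 with the smallest adjusted p in each direction; those whose call turned, and up to 6 each whose call ended or was gained with the trend removed; the 3 highest and 3 lowest by FPKM; the MRPS18 paralogs; MRPL12, MRPL44, MRPL45 and MRPS12 for their roles; and up to 3 in each direction in every companion list. List members without an own sentence are given by counts. RPS19BP1, which binds a ribosomal protein, was left out of the cytosolic list. Promoters and start sites are from RefSeq (GRCh38.p14), start codons from GENCODE 29.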

Additional observations from a re-analysis of the deposited data

How the results depend on the processing

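Counts are given as higher and lower members. RLE size factors, DESeq2, limma-voom and a filter of at least 1 CPM in 3 libraries each gave 38 and 6 (main 38 and 6), no filter 39 and 6, library totals only 42 and 6, and a threshold of 0.01 35 and 5. The share of all genes called is not given for these settings or for the replicate block. For the basic transcripts the share of all genes higher is not given. Differences between these member counts can therefore not be read as a gain or loss particular to the members. Same-numbered libraries deviated together with r = 0.066, 0.103 and 0.206, each the highest or tied highest value of its libraries. Control library 2 correlated as well with exosome library 1 (0.066) as control library 1 did, and control library 1 with exosome library 2 at 0.062. The remaining pairs, all with a library 3, had r of -0.141 to -0.109. The numbers were not taken to pair the samples, and a replicate block gave 39 higher and 7 lower. With the GC and length trend removed, 29 members were higher and 8 lower, 5 of the lower in the large subunit, over all genes 2148 were lower, and the members' median log2 fold change was 0.169; with the replicate block added, 5 large subunit genes were lower. With the trend from the median of basic transcripts (chosen after seeing the data), 28 members were higher and 9 lower, 7 of them in the large subunit, over all genes 2159 were lower, and the median was 0.121. With GC content alone removed, 3 members were lower, 1 of them in the small subunit. Leaving out each library in turn gave 36 to 39 higher and 5 to 6 lower members without and 24 to 33 and 4 to 9 with the trend removed; the large subunit had 26 to 29 higher and 3 to 4 lower (16 to 21 and 3 to 5 with the trend removed), the small subunit 8 to 11 higher and 2 lower (8 to 12 and 1 to 4), all genes 2503 to 3234 higher and 2608 to 3375 lower (1639 to 2312 and 1445 to 2044), and the median was 0.262 to 0.341 (0.147 to 0.192). The lowest count of higher members with the trend removed, 24, came without exosome library 1, and the highest, 33, without control library 3. Of the 38 higher calls, 34 held in all 6 leave-one-out fits; those of MRPL22, MRPL58 and MRPS23 held in 5 and that of MRPS15 in 4, as did the lower call of MRPS36. The log2 fold changes of some named members changed sign; the cause was not tested beyond the setting itself. With the trend removed, with the replicate block added, and from basic transcripts, these were MRPL12 (-0.024, -0.033 and -0.005), MRPL38 (-0.447, -0.435 and -0.391), MRPL40 (-0.301, -0.297 and -0.251) and MRPS2 (-0.199, -0.201 and -0.139). In the first and second of these settings they were also MRPL36 (-0.086 and -0.084) and MRPL42 (0.059 and 0.060), and from basic transcripts MRPL3 (0.077). With GC content alone removed they were MRPL38 (-0.361), MRPL40 (-0.176), MRPS2 (-0.086), MRPL19 (0.039) and MRPL3 (0.154), and with library totals only MRPL3 (0.049) and MRPS18A (0.024). Across leave-one-out fits, with and without the trend, log2 fold changes ran from -0.263 to 0.843 for MRPL12, -0.360 to 0.003 for MRPL19, -0.067 to 0.003 for MRPL3, -0.188 to 0.692 for MRPL36, -0.537 to 0.204 for MRPL38, -0.368 to 0.311 for MRPL40, -0.511 to 0.129 for MRPL42, -0.119 to 0.805 for MRPL54, -0.617 to 0.024 for MRPS18A, -0.860 to 0.017 for MRPS18C and -0.270 to 0.353 for MRPS2. The median level of the members was 23.5 FPKM as deposited and 22.1 from the counts per kb of the longest transcript. Depth limits MRPL12, MRPL45, MRPS18C and MRPS28, which had few reads, and MRPL46 and MRPS24, which were not tested.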
